A study of Homo sapiens with 8 samples.

Results

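The BCL2 family decides whether the outer membrane of the mitochondrion is opened during cell death. BH3-only proteins carry a single short helix, the BH3 domain, and start the process. NOXA (PMAIP1), BIM (BCL2L11), BIK, PUMA (BBC3), BMF and HRK belong to this class. MCL1 and BCL-XL (BCL2L1) hold the BH3-only proteins and the effectors in check, and BAX and BAK1 are the effectors that form the pore through which cytochrome c leaves. NOXA is best known as a selective partner of MCL1, whereas BIM and PUMA bind the guarding proteins broadly. When the endoplasmic reticulum cannot clear misfolded proteins, transcription of several BH3-only genes is known to be a route to cell death.

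All probe sets of these 10 genes were collected from the annotation of the array, which gave 10 of 21357 gene symbols and 30 of 54675 probe sets. BCL2L11 had 7, MCL1 6, HRK 5, BCL2L1 4, PMAIP1 2, BAX 2, and BIK, BBC3, BMF and BAK1 1 each. The BBC3 probe set is annotated to MIR3190 and MIR3191 as well, so by the annotation its value is not given to BBC3 alone. The arrays were made from 293T cells, which derive from human embryonic kidney and contain SV40 large T antigen, with 2 arrays for each group: cells given 5-NA, cells given CBU-028, cells given EerI, each at 10 µM for 10 h, and control cells. EerI (Eeyarestatin I) is an inhibitor of the degradation of proteins of the endoplasmic reticulum that binds the ATPase p97, and it joins a nitrofuran-containing moiety to an aromatic domain. 5-NA (5-nitrofuryl-acrolein) stands for the nitrofuran-containing moiety alone. CBU-028, named here by its code, carries that moiety too, joined to another benzene-containing group in place of the aromatic domain. Solvent treatment of the control cells is not stated for the arrays. The sample titles of the 5-NA group hold an experiment number that stands for another compound elsewhere in the study, whereas source, description and treatment labels name 5-NA, and its values are reported under the name in those labels.

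The values are log2 intensities made with RMA, which brings all arrays to a common distribution, so a log2 difference of 1 is a 2-fold difference. Levels of the members are compared between arrays and not between probe sets. The marker means and percentiles and the choice of the brightest probe set of a gene rank intensities and do not compare amounts of RNA. Duplicates of all groups lay close together, with a residual SD of 0.119 for 5-NA, 0.163 for CBU-028, 0.0974 for EerI and 0.0921 for control, so that CBU-028 was the most variable group. All 6 marker genes of 293T cells were measured, with a mean log2 value over these genes of 9.61 to 9.83 across the arrays, and they lay from the 45.9th (PAX2) to the 99.3rd (VIM) percentile of the probe sets, with NES and LHX1 near the middle at the 56.9th and 55.9th. Of 6 B-cell genes, which mark another line of the study, 5 were measured, with a mean of 6.34 to 6.48 across the arrays, and they lay from the 13.8th (PTPRC) and 24.5th (MS4A1) to the 63.8th percentile (CD79A), so that the ranges of the 2 marker lists overlap. The probe sets for ribosomal RNA moved with the groups: the mean of those for 28S rRNA was 11.28 and 11.42 with 5-NA, 10.56 and 10.72 with CBU-028, 10.52 and 10.58 with EerI, and 10.44 and 10.43 in control cells, and the mean of those for 18S rRNA was 12.06 and 12.45 with 5-NA, 12.38 and 12.10 with CBU-028, 11.49 and 11.66 with EerI, and 11.50 and 11.50 in control cells. The 3' minus 5' difference of ACTB, a sign of RNA quality, was 0.363 on the second 5-NA array and 0.0743 to 0.196 on the others. The part of these differences in the results below was not tested.

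The members split into groups that moved with different compounds. NOXA RNA was higher with all 3 compounds, BIM, BIK and MCL1 RNA was higher and BAX RNA lower with 5-NA, and HRK RNA was higher with CBU-028 and, on 1 of its 5 probe sets, with EerI. At a limma adjusted p under 0.05, 5-NA cells had 15 of the 30 probe sets above and 2 below control cells, against a background of 7.32% higher and 7.9% lower among all probe sets. With CBU-028, 8 were higher and 1 lower, against a background of 4.4% and 5.27%. With EerI, 3 were higher, against a background of 0.357%. The number lower with EerI was 0 by limma, against a background of 0.17%, with 4 lower at an unadjusted p under 0.05 and 0 by the ANOVA of the study's methods with Benjamini-Hochberg adjustment. For counts at an unadjusted p or by the ANOVA, here and below, no share of all probe sets or genes was computed. Such counts are thus not set against a background. The median log2 difference over the members was 0.36 with 5-NA, 0.16 with CBU-028 and -0.07 with EerI, against -0.01, 0.00 and 0.01 over all probe sets. Of the called members, 5 differed by at least 2-fold with 5-NA, 2 with CBU-028 and 0 with EerI, where 0.613%, 0.43% and 0.0988% of all probe sets did. By the ANOVA with adjustment, the calls with 5-NA were 6 of BCL2L11, 1 of BIK and 4 of MCL1 higher and 1 of BAX lower, those with CBU-028 2 of PMAIP1 and 1 of HRK higher and 1 of BMF lower, and 0 with EerI. The 3 comparisons share the control arrays, and probe sets of the same gene are not independent. The higher probe sets belong to 4 genes with 5-NA, 3 with CBU-028 and 2 with EerI. The lower ones belong to 1 gene with 5-NA and 1 with CBU-028. The counts and the median thus give most weight to BCL2L11 and MCL1, which have 7 and 6 probe sets.

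**Figure D1:**
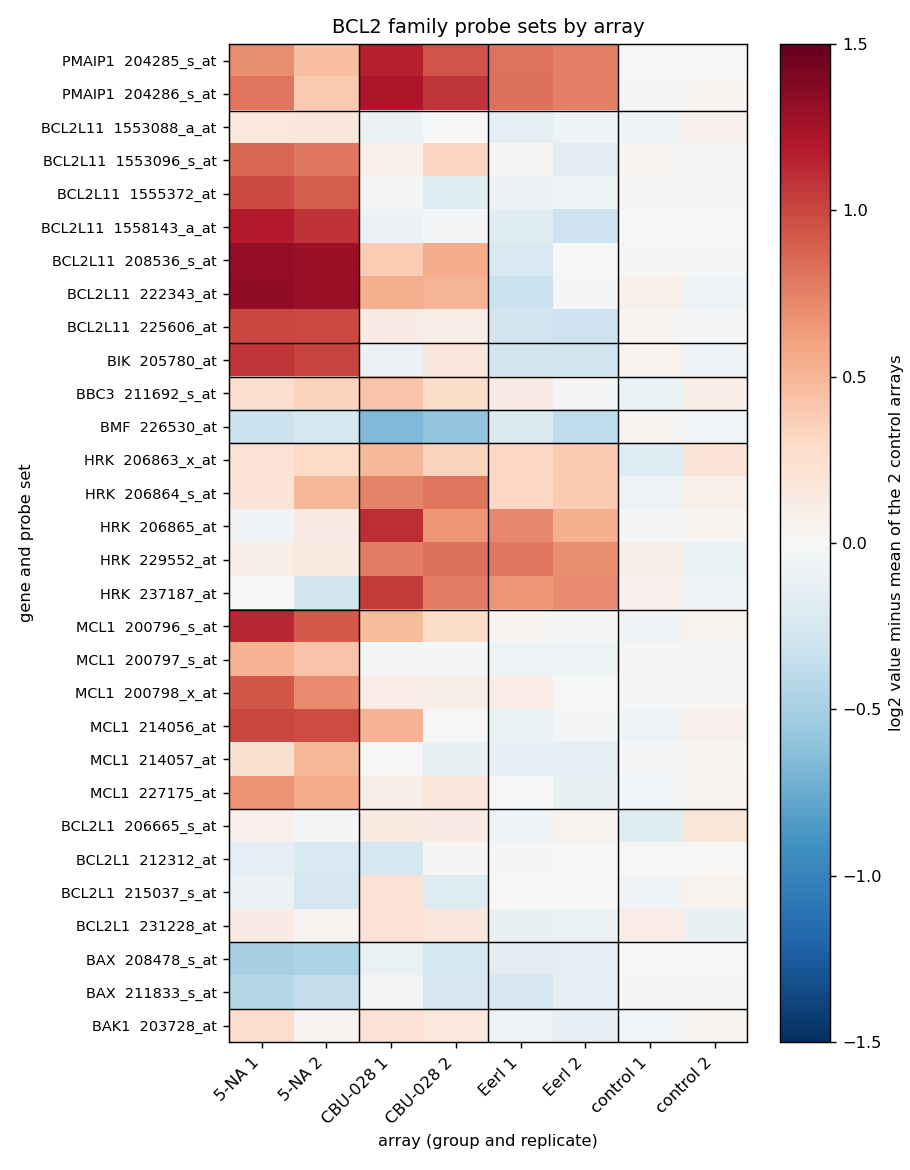
Log2 value of each of the 30 probe sets (rows, grouped by gene) on each of the 8 arrays (columns) minus the mean of the 2 control arrays. Both PMAIP1 rows are raised on all 6 arrays of treated cells, 6 of 7 BCL2L11 rows, BIK and MCL1 are raised on the 5-NA arrays, and HRK rows are raised on the CBU-028 and EerI arrays. The HRK rows 206863_x_at and 206864_s_at are raised on the 5-NA arrays as well, without a call.

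**Figure D2:**
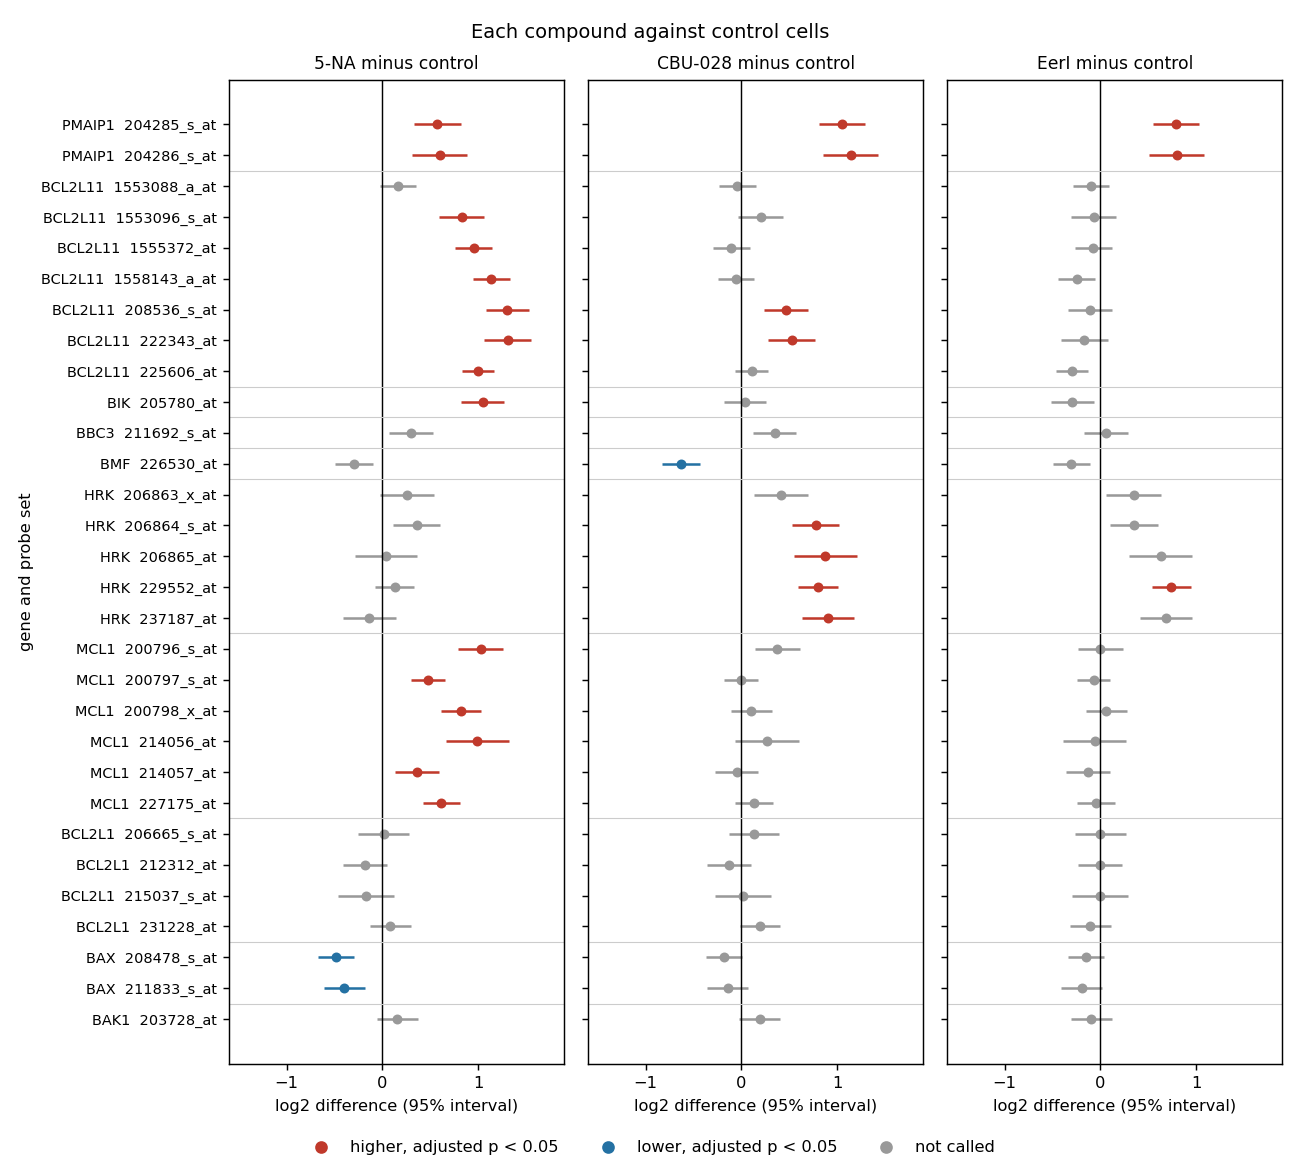
Log2 difference (dot) with its 95% interval (bar) for each probe set, for 5-NA, CBU-028 and EerI minus control, 2 arrays a group. Red marks probe sets higher and blue those lower at an adjusted p under 0.05, and grey those not called: 15 red and 2 blue with 5-NA, 8 red and 1 blue with CBU-028, 3 red with EerI.

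NOXA was the only member that limma called with every compound. Its probe set 204285_s_at read 12.88 and 12.62 with 5-NA, 13.33 and 13.12 with CBU-028, 12.99 and 12.93 with EerI, and 12.17 and 12.18 in control cells. All 6 arrays of treated cells lay above both control arrays, the CBU-028 arrays were the highest, and the second 5-NA array was the lowest of the 6. The difference from control was 0.57 ± 0.11 with 5-NA (SE, adjusted p = 0.00745), 1.05 ± 0.11 with CBU-028 (adjusted p = 0.000767) and 0.79 ± 0.11 with EerI (adjusted p = 0.0157), which is 1.49-fold, 2.07-fold and 1.73-fold. The other probe set, 204286_s_at, read 11.89 and 11.48 with 5-NA, 12.30 and 12.16 with CBU-028, 11.92 and 11.85 with EerI, and 11.06 and 11.12 in control cells. It differed from control by 0.60, 1.14 and 0.80 in the same order of compounds, and the pair followed each other over the 8 arrays (r = 0.994, a description over arrays that share groups). Between compounds, 5-NA lay below CBU-028 by 0.47 and 0.54 (adjusted p = 0.0239 and 0.0276). The difference between 5-NA and EerI did not pass, at -0.21 (95% interval -0.46 to 0.03) and -0.20 (-0.49 to 0.09) for 5-NA minus EerI. CBU-028 minus EerI did not pass either, at 0.26 (0.02 to 0.50) and 0.34 (0.06 to 0.63). Both calls with EerI were lost without either EerI array or either control array, with log2 differences of 0.76 to 0.83 and adjusted p up to 0.37, both calls with 5-NA were lost without the first 5-NA array or either control array, with adjusted p up to 0.0961, and no single array ended the calls with CBU-028. By the ANOVA with adjustment both probe sets passed with CBU-028, and neither passed with 5-NA (adjusted p = 0.0713 and 0.116) or with EerI (adjusted p = 0.185 and 0.26). The lower level with 5-NA than with CBU-028 was lost for both probe sets without the second 5-NA array or the first CBU-028 array (adjusted p up to 0.141), and for 204286_s_at on leaving out any 1 of the EerI and control arrays as well.

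BIM RNA rose with 5-NA on 6 of its 7 probe sets. The brightest, 225606_at, read 10.93 and 10.93 with 5-NA, 10.05 and 10.03 with CBU-028, 9.64 and 9.62 with EerI, and 9.96 and 9.90 in control cells. The 5-NA arrays stood apart above all others and the EerI arrays lay below those of control cells. The difference from control was 0.999 ± 0.07 with 5-NA (SE, adjusted p = 0.000174), 0.11 ± 0.07 with CBU-028 (adjusted p = 0.464) and -0.30 ± 0.07 with EerI (adjusted p = 0.169). The called probe sets differed by 0.83 to 1.31 with 5-NA, which is 1.77-fold to 2.48-fold, and each call held with any 1 array left out. The exception, 1553088_a_at, read 8.83 and 8.84 with 5-NA and 8.60 and 8.74 in control cells, a difference of 0.16 (95% interval -0.03 to 0.35, adjusted p = 0.251).

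The BIM probe sets did not agree for CBU-028. Probe set 222343_at read 8.55 and 8.51 with 5-NA, 7.77 and 7.73 with CBU-028, 6.91 and 7.20 with EerI, and 7.30 and 7.15 in control cells. Here both CBU-028 arrays lay between those of 5-NA and those of control. CBU-028 was higher than control by 0.53 on this probe set (adjusted p = 0.0169) and by 0.47 on 208536_s_at (adjusted p = 0.0208), while the other 5 differed by -0.10 to 0.20 and were not called. The CBU-028 call of 222343_at was lost without the first CBU-028 array or either control array, and that of 208536_s_at without the second CBU-028 array or either control array (adjusted p up to 0.14 and 0.133). The mean over all 7 probe sets differed by 0.16 with CBU-028 (adjusted p = 0.262). These probe sets can read different transcripts of the gene, and which of them each reads was not examined. Between compounds, 5-NA lay above EerI by 0.90 to 1.48 and above CBU-028 by 0.63 to 1.19 on the same 6 probe sets, and of these only the 1553096_s_at call against CBU-028 was lost when an array was left out, the first of 5-NA (adjusted p = 0.0553).

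The 300 bases around the transcription start were read from RefSeq (GRCh38.p14) for 8 of the 10 genes, 10 promoters in all, since members differed in which compound moved them; MCL1 and BIK were not matched. In each, 250 bases lie before the start and 50 after it. They were searched on both strands for 4 motifs: the C/EBP-ATF element TGATGNAAN, which factors such as ATF4 bind, the cAMP response element TGACGTCA, the AP-1 element TGANTCA and the forkhead element GTAAACA of the FOXO factors. A match was found in 3 promoters, and those of BIM and HRK are shown with that of NOXA, in lower case with the match in capitals, 5' to 3' on the strand of the gene.
PMAIP1, chr18:59899746-59900045, + strand: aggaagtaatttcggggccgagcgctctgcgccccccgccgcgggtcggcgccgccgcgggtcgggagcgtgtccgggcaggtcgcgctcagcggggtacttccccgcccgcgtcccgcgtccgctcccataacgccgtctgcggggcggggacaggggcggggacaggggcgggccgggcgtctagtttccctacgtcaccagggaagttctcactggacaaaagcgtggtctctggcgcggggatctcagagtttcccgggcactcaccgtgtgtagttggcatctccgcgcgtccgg
BCL2L11, chr2:111120664-111120963, + strand: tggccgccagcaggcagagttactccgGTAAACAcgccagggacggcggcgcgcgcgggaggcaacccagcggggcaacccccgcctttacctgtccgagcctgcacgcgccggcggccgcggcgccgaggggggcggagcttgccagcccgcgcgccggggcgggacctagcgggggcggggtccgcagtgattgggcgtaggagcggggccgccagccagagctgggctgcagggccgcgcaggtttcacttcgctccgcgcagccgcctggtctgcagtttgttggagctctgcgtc
HRK, chr12:116881392-116881691, - strand: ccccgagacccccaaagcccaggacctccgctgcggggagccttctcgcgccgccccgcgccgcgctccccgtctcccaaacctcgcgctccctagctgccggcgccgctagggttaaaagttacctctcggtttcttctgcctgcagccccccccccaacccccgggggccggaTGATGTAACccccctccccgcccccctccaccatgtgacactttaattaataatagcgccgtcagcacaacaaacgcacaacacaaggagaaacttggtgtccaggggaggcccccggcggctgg
The forkhead element in the BIM promoter begins 223 bases before the start, and 3.42% of 35116 promoters of this length hold these letters. The C/EBP-ATF element in the HRK promoter begins 75 bases before the start, a motif held by 3.61% of promoters. The third match was an AP-1 element in the BBC3 promoter, 113 bases before its start, a motif in 7.71% of promoters. The cAMP response element, in 1.85% of promoters, matched none of the 8 members searched. The NOXA promoter held none of these letters in this window. A match describes the letters and not a bound site. A missing match does not exclude a site outside this window or with other letters. The paper cites earlier work in which ATF4 and ATF3 helped to raise NOXA, which this search does not address.

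BIK, which sits at the endoplasmic reticulum, was measured by 205780_at and followed BIM. It read 9.08 and 9.02 with 5-NA, 7.91 and 8.17 with CBU-028, 7.71 and 7.70 with EerI, and 8.05 and 7.95 in control cells. The 5-NA arrays were the highest, the EerI arrays the lowest, and the CBU-028 and control arrays overlapped. BIK was 2.06-fold higher with 5-NA than in control cells (log2 1.05 ± 0.10 SE, adjusted p = 0.000403), while the difference was 0.04 with CBU-028 (95% interval -0.19 to 0.26) and -0.30 with EerI (-0.52 to -0.07, adjusted p = 0.333). It was 2.53-fold higher with 5-NA than with EerI (log2 1.34 ± 0.10, adjusted p = 0.000213) and 2.01-fold higher with 5-NA than with CBU-028 (log2 1.01 ± 0.10, adjusted p = 0.000965). These 3 calls held with any 1 array left out.

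HRK, a BH3-only protein known from neurons, was called with CBU-028 and EerI and not with 5-NA, whereas BIK was called with 5-NA alone. Its probe set 229552_at read 8.49 and 8.54 with 5-NA, 9.16 and 9.22 with CBU-028, 9.17 and 9.08 with EerI, and 8.49 and 8.29 in control cells. The arrays of CBU-028 and EerI overlapped with each other and lay above those of 5-NA and control. The difference from control was 0.13 ± 0.09 with 5-NA (SE, adjusted p = 0.433), 0.80 ± 0.09 with CBU-028 (adjusted p = 0.00121) and 0.74 ± 0.09 with EerI (adjusted p = 0.0102). On 237187_at the arrays read 7.83 and 7.56 with 5-NA, 8.87 and 8.60 with CBU-028, 8.49 and 8.53 with EerI, and 7.90 and 7.76 in control cells. Here too CBU-028 and EerI lay above control on every array, by 0.91 (adjusted p = 0.00249) and 0.69 (adjusted p = 0.0534).

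With CBU-028, 4 of the 5 HRK probe sets were higher than in control cells, by 0.78 to 0.91, and 206863_x_at, whose suffix marks probes that can also bind other transcripts, differed by 0.41 (adjusted p = 0.0771). The CBU-028 call of 206865_at was lost without the first control array (adjusted p = 0.0597) and the other 3 held with any 1 array left out. By the ANOVA with adjustment 229552_at was the only HRK probe set to pass with CBU-028 (adjusted p = 0.0303), and none passed with EerI (229552_at, adjusted p = 0.126). With EerI all 5 differed in the same direction, by 0.35 to 0.74, and 229552_at passed; its call was lost without either EerI array or the second control array (adjusted p up to 0.18). The mean over the 5 probe sets was higher by 0.55 with EerI (adjusted p = 0.0299) and by 0.75 with CBU-028 (adjusted p = 0.00113). With 5-NA the differences were -0.14 to 0.36 and none was called. On 206864_s_at the difference was 0.36 with 5-NA and 0.35 with EerI, and on 206863_x_at 0.26 and 0.35, so these probe sets did not separate the 2 compounds. Set against the other compounds, 5-NA was lower than EerI on 3 probe sets, by 0.59 to 0.82, and lower than CBU-028 on 4, by 0.42 to 1.04. The 5-NA against EerI call of 206865_at was lost on leaving out any 1 of the 5-NA and EerI arrays (adjusted p up to 0.182). Of the 5-NA against CBU-028 calls, that of 206865_at was lost without the first 5-NA array (adjusted p = 0.0663) and that of 206864_s_at on leaving out any 1 array other than the second of 5-NA (adjusted p up to 0.199). CBU-028 minus EerI was 0.06 (95% interval -0.15 to 0.26) on 229552_at and 0.07 to 0.42 over the other 4, with none called.

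BMF, which is held at the cytoskeleton by a dynein light chain, was lower with CBU-028. Its probe set read 7.64 and 7.70 with 5-NA, 7.30 and 7.37 with CBU-028, 7.74 and 7.58 with EerI, and 8.004 and 7.93 in control cells. All arrays of treated cells lay below those of control cells. The difference from control was -0.29 ± 0.09 with 5-NA (SE, adjusted p = 0.0524), -0.63 ± 0.09 with CBU-028 (adjusted p = 0.00297) and -0.30 ± 0.09 with EerI (adjusted p = 0.237). The CBU-028 call held with any 1 array left out, whereas the 0.33 by which 5-NA lay above CBU-028 (adjusted p = 0.0418) lost its call on leaving out any 1 array other than the second of CBU-028 (adjusted p up to 0.173). The probe set annotated to BBC3 and to 2 microRNA genes gave 9.10 and 9.19 with 5-NA, 9.27 and 9.11 with CBU-028, 8.97 and 8.83 with EerI, and 8.75 and 8.94 in control cells. It differed by 0.30 with 5-NA (adjusted p = 0.0803), 0.35 with CBU-028 (adjusted p = 0.0642) and 0.05 with EerI (adjusted p = 0.941), and no comparison passed. With probe sets of a mean log2 value under 7 left out of the test, BMF passed with 5-NA (adjusted p = 0.0202) and the BBC3 probe set passed with 5-NA and CBU-028 (adjusted p = 0.0385 and 0.0305).

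**Figure D3:**
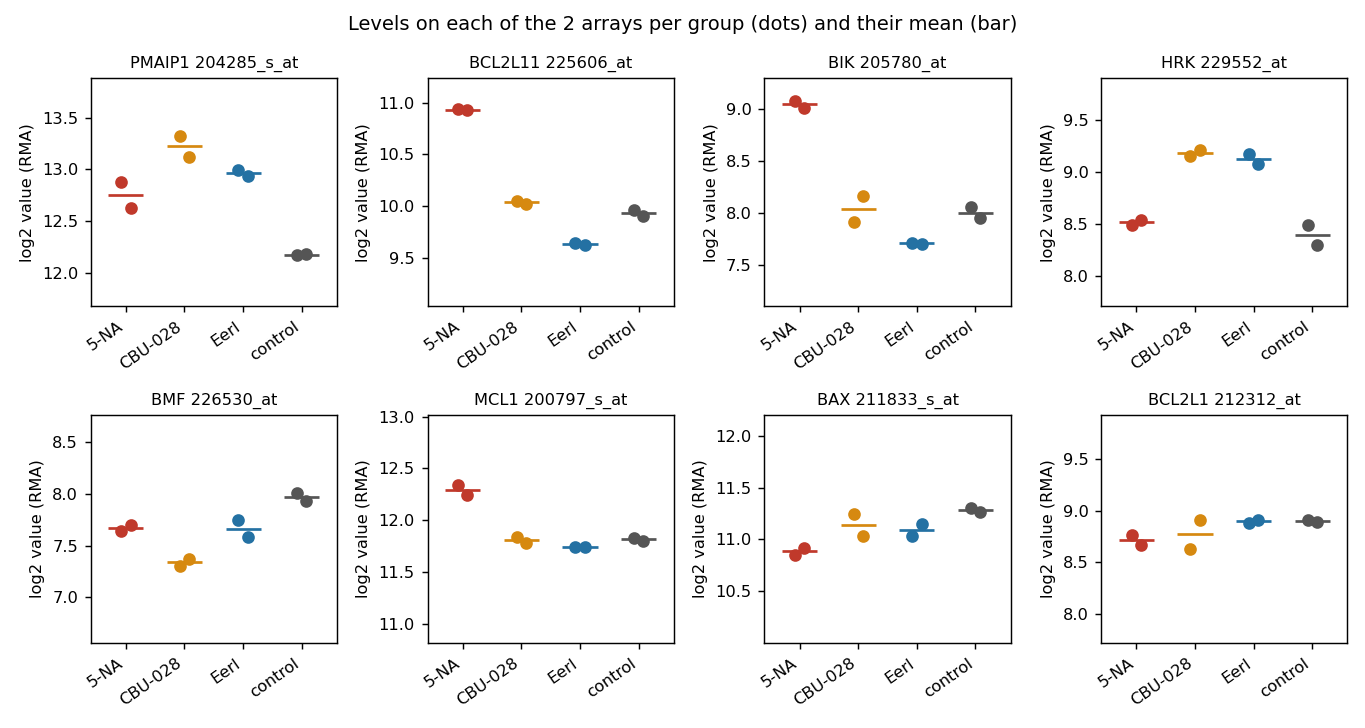
Log2 level of 1 probe set for each of 8 members on the 2 arrays (dots) of 5-NA, CBU-028, EerI and control cells, with the group mean as a bar. Each panel spans 2.2 log2 units around its own mean, so heights compare between groups and not between panels: PMAIP1 is raised in all 3 treated groups, BCL2L11, BIK and MCL1 with 5-NA, and HRK, shown by 229552_at, with CBU-028 and EerI.

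Among the guarding proteins, MCL1, which binds NOXA and BIM and turns over rapidly, was higher with 5-NA on all 6 probe sets, and none of the 4 probe sets of BCL2L1 was called in any comparison. MCL1 200797_s_at read 12.34 and 12.24 with 5-NA, 11.84 and 11.78 with CBU-028, 11.75 and 11.74 with EerI, and 11.83 and 11.80 in control cells. Probe set 200796_s_at read 9.58 and 9.37 with 5-NA, 8.92 and 8.73 with CBU-028, 8.48 and 8.42 with EerI, and 8.40 and 8.50 in control cells. On both, the 5-NA arrays lay above all others, and on the second the CBU-028 arrays lay between those of 5-NA and control. The size of the rise with 5-NA differed between probe sets, at 0.48 ± 0.08 (SE, adjusted p = 0.00426) on the first and 1.03 ± 0.10 (adjusted p = 0.000525) on the second, with 0.36 to 0.99 on the other 4. The least of these, on 214057_at (adjusted p = 0.0409), was lost without the second 5-NA array or any 1 of the EerI and control arrays (adjusted p up to 0.214).

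Against EerI, 5-NA was higher for MCL1 by 0.49 to 1.05, and against CBU-028 by 0.42 to 0.72, on all 6 probe sets in each case. The 214057_at calls were lost without the second 5-NA array and without either EerI array in both, and against CBU-028 also without the second CBU-028 array or either control array (adjusted p up to 0.0835 and 0.163). Against CBU-028 the 214056_at call was lost without either 5-NA array and that of 227175_at without the first of them (adjusted p up to 0.0882 and 0.062). With EerI, MCL1 differed from control by -0.13 to 0.06, and with CBU-028 by -0.05 to 0.37, where 200796_s_at had the largest difference (adjusted p = 0.0535). BCL2L1 212312_at read 8.77 and 8.67 with 5-NA, 8.63 and 8.92 with CBU-028, 8.88 and 8.91 with EerI, and 8.91 and 8.90 in control cells. Over its 4 probe sets the difference from control was -0.18 to 0.08 with 5-NA, -0.13 to 0.20 with CBU-028 and -0.11 to 0.00 with EerI. By limma none passed even at an unadjusted p under 0.05 against control, and 1 did between CBU-028 and EerI, where 231228_at differed by 0.30 (adjusted p = 0.131); by the ANOVA with adjustment the count was 0 in every comparison.

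Of the effectors, BAX was lower with 5-NA. Probe set 208478_s_at read 9.87 and 9.89 with 5-NA, 10.26 and 10.10 with CBU-028, 10.20 and 10.22 with EerI, and 10.36 and 10.37 in control cells, and 211833_s_at read 10.85 and 10.92 with 5-NA, 11.25 and 11.03 with CBU-028, 11.03 and 11.15 with EerI, and 11.31 and 11.26 in control cells. The 5-NA arrays were the lowest and the control arrays the highest on both. The differences with 5-NA were -0.48 ± 0.08 (SE, adjusted p = 0.0051) and -0.40 ± 0.10 (adjusted p = 0.0227), with CBU-028 -0.18 and -0.14, and with EerI -0.15 and -0.20, where neither compound was called. The first call was lost without the second control array (adjusted p = 0.0506) and the second on leaving out any 1 of the 5-NA and control arrays (adjusted p up to 0.145). Against EerI and CBU-028, 5-NA was lower on 208478_s_at by 0.33 and 0.30 (adjusted p = 0.0286 and 0.0488). The call against EerI was lost on leaving out any 1 of the 5-NA, EerI and control arrays, and that against CBU-028 on leaving out any 1 array other than the second of CBU-028 (adjusted p up to 0.152 and 0.16). BAK1 read 10.12 and 9.89 with 5-NA, 10.08 and 10.01 with CBU-028, 9.78 and 9.73 with EerI, and 9.82 and 9.89 in control cells. Its difference from control was 0.15 (95% interval -0.06 to 0.37) with 5-NA, 0.19 (-0.02 to 0.41) with CBU-028 and -0.10 (-0.31 to 0.12) with EerI, and it was called in no comparison.

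The 3 pairs of compounds were compared at the same dose and time. Between 5-NA and EerI, which differ by the aromatic domain that EerI adds to the nitrofuran-containing moiety, 13 member probe sets were higher with 5-NA, 6 of BCL2L11, 1 of BIK and 6 of MCL1, and 4 were lower, 3 of HRK and 1 of BAX, against a background of 6.93% and 7.08%. At least 2-fold differences numbered 8, of BCL2L11, BIK and MCL1, where 0.492% of all probe sets had one. Between 5-NA and CBU-028, 14 were higher with 5-NA and 7 lower, against a background of 5.51% and 5.09%, with 4 of at least 2-fold against 0.291%; the lower ones were both of NOXA, 4 of HRK and 1 of BAX. Between CBU-028 and EerI, 3 probe sets, all of BCL2L11, were higher with CBU-028, by 0.40 to 0.70, against a background of 1.28%. None of the members was lower by limma, against a background of 1.67%, with 1 lower at an unadjusted p under 0.05 and 0 by the ANOVA with adjustment, and none reached 2-fold, where 0.0732% of all probe sets did. Each of these 3 calls was lost without either EerI array, and 225606_at also without the first CBU-028 array, 208536_s_at without either 5-NA array, and both without either control array (adjusted p up to 0.198). With p-values adjusted over all 6 comparisons together, the pairs gave 17, 20 and 4 calls in place of 17, 21 and 3.

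**Figure D4:**
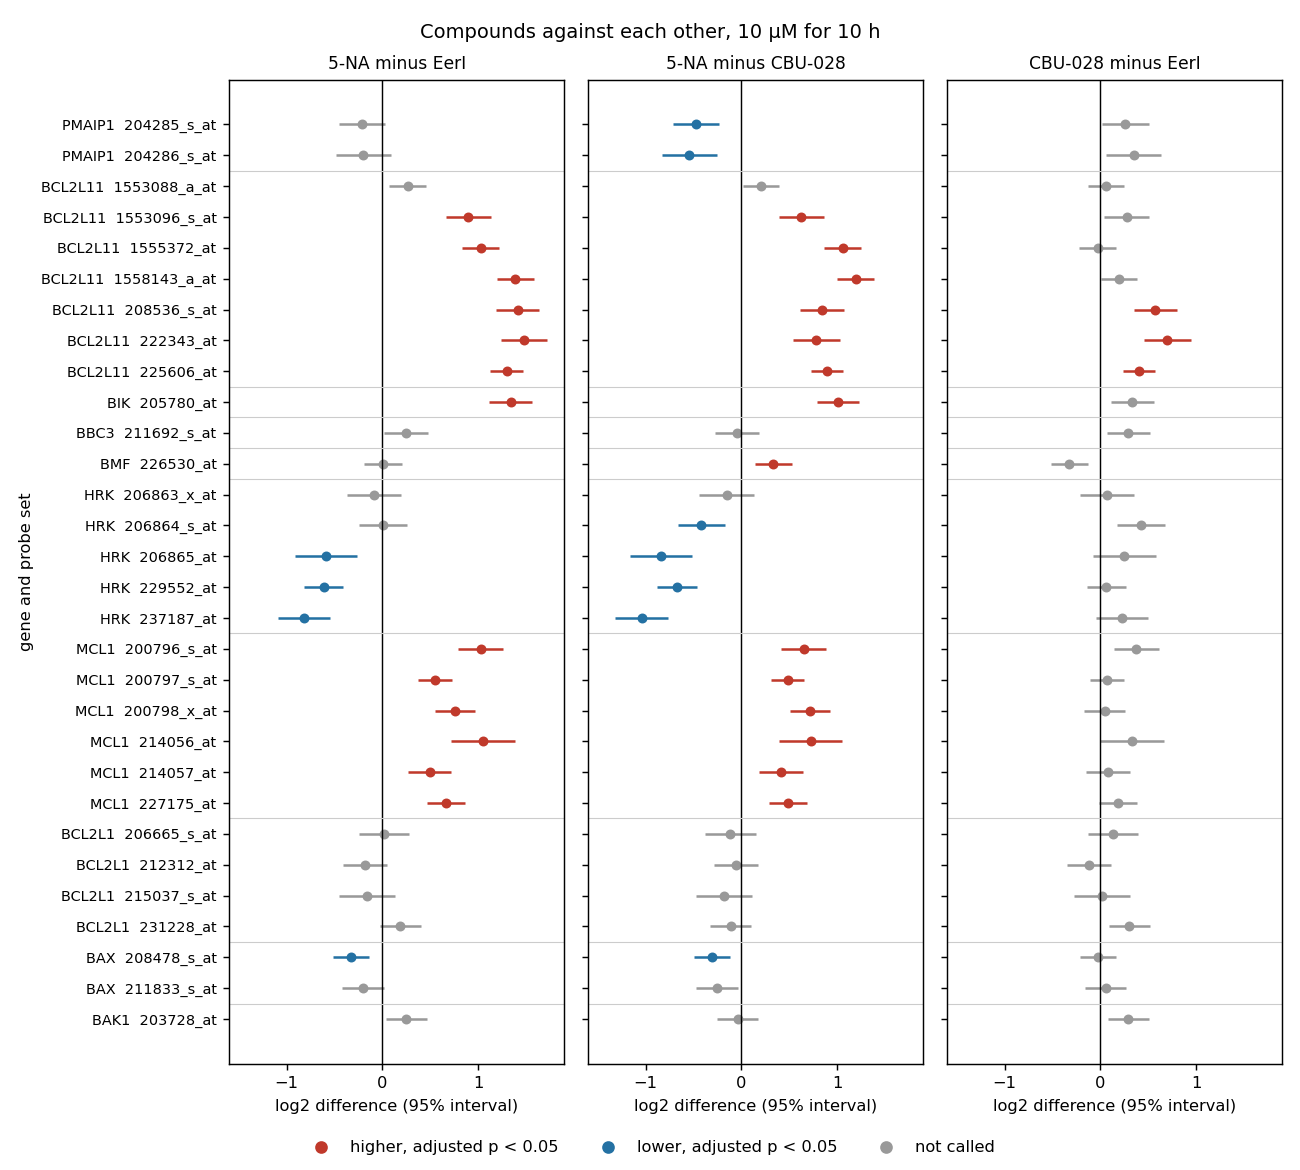
Log2 difference (dot) with its 95% interval (bar) for each probe set between compounds at 10 µM for 10 h: 5-NA minus EerI, 5-NA minus CBU-028 and CBU-028 minus EerI. Red marks higher and blue lower in the compound named first at an adjusted p under 0.05: 13 red and 4 blue, 14 red and 7 blue, and 3 red.

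For the 3 BH3-only genes NOXA, BIM and BIK, the genes with the most similar course were sought among 299 genes whose group means span at least 1 log2 unit, by Pearson's r over the 8 arrays. The arrays fall into 4 groups, so r describes mainly the 4 means. NOXA was most like DDIT3, which encodes the stress factor CHOP (r = 0.983), the amino acid transporter gene SLC1A4 (r = 0.979) and STC2, which encodes a secreted glycoprotein (r = 0.978). BIM was most like SERTAD1 (r = 0.993), the cyclin E gene CCNE1 (r = 0.992) and KLHL21 (r = 0.99). BIK shared CCNE1 (r = 0.995) and SERTAD1 (r = 0.992) with BIM, and BIM itself came next (r = 0.987).

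Further genes of the pathway were read by 1 probe set a gene, the brightest with a single symbol, from 4 lists. Over all 19775 genes so represented, 7.87% were higher and 10.9% lower with 5-NA, 5.49% and 7.1% with CBU-028, and 0.506% and 0.263% with EerI. Of the 11 transcription factors known to act on BH3-only genes that were tested, 4 were higher with 5-NA, 6 with CBU-028 and 4 with EerI. By limma 0 were lower with any compound, with 0 at an unadjusted p under 0.05 and 0 by the ANOVA. By the ANOVA with adjustment 4 were higher with 5-NA, 5 with CBU-028, JUN being the one lost, and 0 with EerI. By limma ATF3, ATF4, CEBPB and DDIT3 rose with every compound, and FOXO3 and JUN with CBU-028 (0.33 for each). The FOXO3 call was lost without the first CBU-028 array and that of JUN, read by a probe set ending in _x_at, without the second, and both were lost on leaving out any 1 of the EerI and control arrays (adjusted p up to 0.181 and 0.22). DDIT3 read 10.16 and 9.92 with 5-NA, 10.94 and 10.77 with CBU-028, 10.27 and 10.37 with EerI, and 8.50 and 8.49 in control cells. Every treated array lay above both control arrays, with the 5-NA arrays the lowest of the 6 and the CBU-028 arrays the highest, an order also seen on 204285_s_at of NOXA but not on 204286_s_at, where the 5-NA and EerI arrays overlapped. The difference from control for DDIT3 was 1.55 with 5-NA, 2.36 with CBU-028 and 1.82 with EerI, that for ATF3 was 2.03, 2.84 and 1.87, that for CEBPB 1.03, 1.57 and 1.32, and that for ATF4, which controls the response to amino acid and unfolded-protein stress, 0.48, 0.64 and 0.78. The ATF4 calls were lost with 5-NA without the first 5-NA or the first control array (adjusted p up to 0.078), and with EerI on leaving out any 1 of the EerI and control arrays (adjusted p up to 0.12). The list median was 0.08, 0.33 and 0.18 with 5-NA, CBU-028 and EerI, against -0.03, -0.01 and 0.00 over all genes.

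The remaining 3 lists, in the order below, held 12, 11 and 9 tested genes. With 5-NA, limma called 0, 0 and 2 of them higher and 1, 3 and 0 lower. With CBU-028 it called 1, 0 and 0 higher and 0, 1 and 0 lower. Over all genes, 7.87% were higher and 10.9% lower with 5-NA, and 5.49% and 7.1% with CBU-028. With so few genes, these counts do not set the lists apart from all genes, and no set test was made. Of 12 other genes of the BCL2 family, BCL2L2, which encodes the guarding protein BCL-W, was lower with 5-NA: it read 8.71 and 8.93 with 5-NA, 9.57 and 9.51 with CBU-028, 9.77 and 9.61 with EerI, and 9.47 and 9.43 in control cells. The 5-NA arrays lay below all others, and the difference was -0.63 from control (adjusted p = 0.00352), -0.87 from EerI (adjusted p = 0.001) and -0.72 from CBU-028 (adjusted p = 0.00308), each held with any 1 array left out. BNIP3L, which encodes a mitochondrial receptor for autophagy, was higher with CBU-028 by 0.47 (adjusted p = 0.0347), a call lost on leaving out any 1 array other than the second of CBU-028 (adjusted p up to 0.193). The list median was -0.06 with 5-NA, 0.09 with CBU-028 and 0.00 with EerI.

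At the step of cytochrome c and the caspases, 11 genes were tested. AIFM1 and ENDOG, which encode mitochondrial proteins released in cell death, and CASP6 were lower with 5-NA by 0.55, 0.45 and 0.47, and HTRA2, a mitochondrial protease, was lower with CBU-028 by 0.40. The AIFM1 call was lost without the second 5-NA or the second control array, that of CASP6 without either control array or the second 5-NA array, that of ENDOG without the first 5-NA array or any 1 of the EerI and control arrays, and that of HTRA2 without either control array (adjusted p up to 0.0652, 0.138, 0.221 and 0.135). The list median was -0.17 with 5-NA, -0.17 with CBU-028 and -0.04 with EerI. Of 9 partners and turnover factors, FBXW7, which encodes a ubiquitin ligase subunit acting on MCL1, and DYNLL2, which encodes the dynein light chain that holds BMF, were higher with 5-NA by 0.49 and 0.36 (adjusted p = 0.0133 and 0.0195). Both calls were lost without the first 5-NA array or either control array (adjusted p up to 0.114 and 0.147). The list median was 0.14 with 5-NA, 0.05 with CBU-028 and 0.03 with EerI. With EerI, limma called 0 genes of these last 3 lists, where 0.506% of all genes were higher and 0.263% lower. The unadjusted p was under 0.05 for 3 that were higher and 3 that were lower, and 0 passed the ANOVA with adjustment.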

How the data were processed

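The 8 arrays hold 2 samples of each group of 293T cells, and the methods call the treatments duplicates. The authors deposited log2 values from RMA, an algorithm that removes background, equalizes the distributions of the arrays and combines the probes of a probe set. Partek is named in the labels too, and no version is given for either tool. The probe set names are those of HG-U133 Plus 2.0, although the methods name a smaller array of that family. RNA extraction is given as RNeasy in the labels and as TRIzol with RNeasy MinElute in the methods. RMA keeps no detection calls, so signal over background was not assessed, and the number of arrays limits the precision (median SE of a difference 0.099).

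Genes were assigned from the platform annotation (41097 probe sets with 1 symbol, 1801 with several, 11777 with none). A mean per group was fitted to all 8 arrays in limma 3.58.1 (R 4.3.3; 4 residual and 5.08 prior degrees of freedom), with Benjamini-Hochberg adjustment over 54675 probe sets in each of 6 comparisons, and a probe set was called at an adjusted p under 0.05. Each p rests on how far the 2 samples within groups lie apart, as 1 estimate over all groups. On average, tests of CBU-028 therefore use a narrower spread than its own. The test of EerI against control uses a wider spread than those groups had. An exact permutation test of 2 against 2 arrays cannot go below p = 0.333 and was not used. The fit was tested on simulated data with changes of known size. The members and lists were chosen with earlier results of these data known. All members are described, with up to 4 genes of each other list that passed against control, those with the largest differences, and the 3 genes most like NOXA, BIM and BIK. FOXO3 and JUN were named after their values were seen. Promoters were read from RefSeq (GRCh38.p14). The alternatives were the ANOVA of the methods, fold thresholds, floors on dim probe sets, other normalization, a replicate block, other variance models, adjustment over all comparisons, no probe sets ending in _x_at, gene means and leaving out each array. Plots were made in matplotlib 3.10.9 (Python 3.11.15).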

Additional observations from a re-analysis of the deposited data

How the results depend on the processing

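No result changed direction while called in any alternative. Of the counts of called member probe sets and of called genes of the 4 other lists, those below moved by over 1.5 times. The ANOVA of the methods at an unadjusted p under 0.05 and at least 2-fold, and likewise limma with at least 2-fold, called 5 members with 5-NA, 2 with CBU-028 and 0 with EerI against control, and 8 between 5-NA and EerI, 4 between 5-NA and CBU-028 and 0 between CBU-028 and EerI, with 3 list genes each for 5-NA and CBU-028. The ANOVA with adjustment called 4 members with CBU-028 and 0 with EerI, 9 between 5-NA and CBU-028, 0 between CBU-028 and EerI, and 0 list genes with EerI. At least 1.5-fold left 13 members between 5-NA and CBU-028 and 1 between CBU-028 and EerI, with 4 list genes each for 5-NA and CBU-028. A floor at a mean log2 value of 7 gave 5 members between CBU-028 and EerI and 13 list genes with CBU-028. Fits of the compared groups alone gave 5 members with EerI, 12 between 5-NA and CBU-028, 0 between CBU-028 and EerI, and 4 list genes with CBU-028. A trend in the prior variance gave 5 members with EerI, 5 between CBU-028 and EerI, and 15 list genes with CBU-028. Weights per group gave 6 with EerI and 1 between CBU-028 and EerI, and adjustment over all comparisons 6 with EerI. The cause of these changes was not tested, apart from the fold thresholds, which remove calls by construction. Apart from members by limma with at least 2-fold, no share over all probe sets or genes was computed for these or the following settings. Their counts are thus not set against a background.

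Leaving out 1 array gave 12 to 19 called members with 5-NA, 6 to 11 with CBU-028 and 0 to 5 with EerI, 14 to 18 between 5-NA and EerI, 14 to 21 between 5-NA and CBU-028 and 0 to 6 between CBU-028 and EerI, and 5 to 12, 4 to 9 and 3 to 5 list genes with 5-NA, CBU-028 and EerI. The lone array of a group is then assumed to vary like the other groups. The counts of 0 came without either EerI array, and with EerI against control also without the second control array. The lowest count with 5-NA came without the second control array, the lowest with CBU-028 without the first control array, and the lowest between 5-NA and CBU-028 without the first 5-NA array. The lowest counts of list genes with 5-NA and with CBU-028 came without either control array. The highest counts came without the second CBU-028 array, and several of them also without the first.

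The sample numbers are shared by the groups. Deviations from the group means of samples with the same number correlated at -0.146 to 0.146 over all probe sets. This gave no sign of pairing, but it cannot exclude a weak pairing or a pairing limited to some genes. The main fit used none. With a replicate block the counts were 17 with 5-NA, 9 with CBU-028 and 4 with EerI, 17 between 5-NA and EerI, 19 between 5-NA and CBU-028 and 3 between CBU-028 and EerI, and 10, 8 and 4 list genes. Quantile normalization, median centring, a floor of 5 and leaving out probe sets ending in _x_at moved no count by over 1.5 times. With gene means in place of the brightest probe set, the call of 1 gene changed, that of BCL2L11 between CBU-028 and EerI (0.31, adjusted p = 0.0684).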
